A study of Mus musculus with 33 samples.

Results

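The genes described here are snoRNA host genes, long noncoding RNA genes whose introns carry small nucleolar RNAs (snoRNAs). A list of 9 gene symbols was looked up in the deposited expression table: Snhg1, Snhg3, Snhg4, Snhg5, Snhg6, Snhg7, Snhg8, Snhg12 and Gas5. Of these, 7 were matched among the 21671 genes of the table. Snhg4 and Snhg5 were not matched by symbol and are not analysed here. All 7 matched genes passed the filter on low values in both arms of the study.

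snoRNAs guide the chemical modification of ribosomal RNA: box C/D snoRNAs guide methylation and box H/ACA snoRNAs guide the conversion of uridine to pseudouridine. Most mammalian snoRNAs are not transcribed alone but are cut out of the introns of a host gene after splicing. The spliced remainder of these noncoding hosts, which is what a gene-level count mostly measures, has no long reading frame. Gas5 and several Snhg transcripts begin with a run of pyrimidines, the terminal oligopyrimidine start also found on ribosomal protein messages, and are known to be degraded by nonsense-mediated decay when they are translated. MYC is a transcription factor known for driving ribosome production, and β-catenin is the transcriptional partner through which WNT signals act in the liver.

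The study asked how MYC and β-catenin change gene expression in mouse hepatocytes soon after activation and in tumours, using total RNA from 33 livers or liver tumours of strain C57BL/6. In the short-term arm, mice aged 6 to 8 weeks received AAV8-TBG-CRE, a virus that makes Cre recombinase from a promoter active in hepatocytes, and livers were taken 4 days later. All of these animals received the virus, wild type included: 5 wild-type livers, 5 with the β-cat Ex3 allele whose exon 3 Cre removes (Ex3), 5 with the R26-lslMYC transgene that Cre switches on (MYC), and 5 with both alleles (MYC+Ex3). The tumour arm held 3 nodules of Alb-CreERT2/R26-lslMYC mice (MYC tumours), 3 nodules of mice that also carried β-cat Ex3 (MYC+Ex3 tumours), and 7 livers labelled wild type taken 4 days after 4-hydroxytamoxifen (4-OHT), the drug that activates CreERT2. The labels give no age for the tumour-bearing mice, so genotype, tumour tissue and time since activation cannot be told apart in that arm. Each library is a separate sample by its title number, and p-values measure the spread between these samples, part of which may be technical.

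The deposited unit was RPKM, a read count scaled by gene length and library size, and levels are compared within an arm because the RPKM of the 2 arms are on different scales. Reads assigned to genes came to 3.75 to 7.31 M per AAV liver and 6.65 to 9.82 M per library of the tumour arm. The highest RPKM of any gene was low, at 220 to 396 per AAV liver and 42.9 to 67.5 per library of the tumour arm. Changes of abundant genes may therefore be understated, which was not tested. The labels were checked on other genes first. Axin2, a feedback target of β-catenin, was at 10.6 to 24.9 RPKM in Ex3 livers against 2.73 to 4.3 in wild-type livers, and Ncl, the nucleolar protein nucleolin, was at 41.2 to 98.3 RPKM in MYC livers against 15.3 to 24.2. The Myc row itself was at 3.12 to 4.81 RPKM in MYC livers and 0.748 to 4.11 in wild-type livers, and did not pass the test. Hepatocyte markers summed to 948 to 1655 RPKM across the AAV livers and 164 to 293 across the tumour arm. In 10 of the AAV libraries the epidermal keratins Krt5, Krt14 and Krt17 summed to at least 3.95 RPKM, against at most 0.398 in the other 10. The MYC group had 1 of these keratin-bearing libraries, replicate 4, while each of the other groups had 3, so results are also given without them.

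The starts of the host genes are shown because the terminal pyrimidine run is a feature of this gene family. RefSeq (GRCm38.p6) gave a promoter entry for 6 of the 7 genes, with 2 annotated starts for Gas5. The Gas5 start at chr1:161034556-161034630 (+) has neither of the features marked below. It is counted but not printed. Each sequence below runs from 45 bases before the annotated start to 30 bases from it onward, 5′ to 3′ on the strand of the gene, with capitals marking TATA in the window of 45 to 21 bases before the start and the pyrimidine run at the start.
Gas5, chr1:161035121-161035195 (+): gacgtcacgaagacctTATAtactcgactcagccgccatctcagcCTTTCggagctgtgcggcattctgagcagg
Snhg7, chr2:26640215-26640289 (-): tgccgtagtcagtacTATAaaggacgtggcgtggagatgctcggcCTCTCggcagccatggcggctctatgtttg
Snhg8, chr3:123508307-123508381 (-): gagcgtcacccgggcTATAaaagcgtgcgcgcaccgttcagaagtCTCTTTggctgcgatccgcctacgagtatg
Snhg12, chr4:132308633-132308707 (+): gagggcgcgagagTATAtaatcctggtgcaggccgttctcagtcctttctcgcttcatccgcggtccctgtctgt
Snhg1, chr19:8723442-8723516 (+): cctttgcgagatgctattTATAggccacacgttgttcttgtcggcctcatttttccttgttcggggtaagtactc
Snhg3, chr4:132353657-132353731 (-): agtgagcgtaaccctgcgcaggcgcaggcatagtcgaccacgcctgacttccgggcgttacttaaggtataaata

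A start with C followed by at least 4 pyrimidines was present at 3 of the 7 annotated starts, in Gas5, Snhg7 and Snhg8, against 2.51% of all 32851 mouse starts in the same RefSeq table. TATA lay in the searched window on the sense strand at 5 of 7 starts, between 27 and 32 bases before the start, against 6.17% of all starts. The TATA motif was chosen after the sequences had been seen. The E-box letters CACGTG, searched on both strands from 250 bases before to 50 bases after the start, were found at 0 of 7 starts and at 7.15% of all starts. The variant CACGCG was found at 0 of 7 and at 9.27% of all. These are matches of letters in a window at annotated starts, and carry no information on whether a factor bound there.

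In wild-type AAV livers the host genes were moderately expressed, and their order was Gas5, Snhg6, Snhg8, Snhg12, Snhg1, Snhg3 and Snhg7. Gas5, known as a growth arrest transcript and host of box C/D snoRNAs, had a mean of 44.4 ± 7.08 RPKM (SD, n = 5). Snhg6 followed at 35.4 ± 7.06 and Snhg8 at 33.2 ± 6.96 RPKM, and the ranges of these top 3 genes overlapped in that order. Snhg12 was at 15.7 ± 3.64, Snhg1 at 12.2 ± 1.43 and Snhg3 at 11 ± 5.38 RPKM, again with overlapping ranges between neighbours. The lowest level was that of Snhg7, at 7.83 ± 1.51 RPKM. The libraries of Snhg8 and Snhg12 did not overlap, nor did those of Snhg1 and Snhg7. By mean RPKM, Gas5 stood above 89.9% of all genes in the table and Snhg7 above 63.3%.

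The precision behind these levels differed between genes. In wild-type AAV livers Gas5 rested on 452 to 690 reads per library and Snhg1 on 139 to 235, while Snhg3 rested on 12 to 45 and Snhg7 on 21 to 41. The gene length implied by reads and RPKM was 2957 bases for Snhg1, close to the 2840 bases from first to last exon in RefSeq, so its count can include intron sequence. For Gas5 it was 2555 of 3939 bases, so the same may hold there. For Snhg6 the implied length was 407 of 2094 bases and for Snhg12 it was 935 of 2347. Only Snhg8, at 785 bases, had the same length by both measures.

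The first comparison asked what MYC alone did within 4 days, and 7 of 7 measured host genes were called higher in MYC livers, where 16.9% of the 13688 genes tested were called higher. Gas5, at 43.1, 39.7, 37.4, 55.6 and 46 RPKM in the 5 wild-type livers, was at 112, 90.9, 108, 157 and 56.6 in the 5 MYC livers. The 2 groups did not overlap, although the lowest MYC liver was close to the highest wild-type liver. Its log2 change was 1.16 ± 0.186 (SE; limma adjusted p = 0.000136), a fitted fold of 2.23 with a 95% CI of 1.71 to 2.92.

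Snhg1, which hosts several box C/D snoRNAs, was at 11.1, 10.6, 13.1, 14.1 and 12 RPKM in wild-type livers and at 45.1, 33, 43.7, 74.7 and 18 RPKM in MYC livers. The wild-type libraries were close together and the MYC libraries spread over a wide range above them. The log2 change was 1.61 ± 0.239 (limma adjusted p = 6.47e-05). Snhg12, host of the H/ACA snoRNAs Snora16a, Snora44 and Snora61, was at 13.9, 11.5, 20.3, 18.7 and 14.2 RPKM in wild type and at 54.1, 47.2, 40.4, 60.5 and 21.7 RPKM with MYC. MYC replicate 5 was only just above the highest wild-type library. The log2 change was 1.40 ± 0.206 (limma adjusted p = 5.48e-05).

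The least abundant host, Snhg7, was at 10.3, 7.26, 8.22, 6.93 and 6.46 RPKM in wild-type livers and at 39.7, 26.4, 25.8, 47.8 and 13.5 RPKM in MYC livers, with no overlap. Its log2 change was 1.74 ± 0.277 (limma adjusted p = 0.000123). Snhg3, which hosts the H/ACA snoRNAs Snora73a and Snora73b, was at 19.1, 6.16, 7.17, 13.6 and 8.88 RPKM in wild type and at 49.2, 27.1, 42.2, 78.6 and 17.1 RPKM with MYC. The groups overlapped through wild-type replicate 1 and MYC replicate 5. Its log2 change had the highest estimate of the 7 genes, 1.80 ± 0.33 (limma adjusted p = 0.000497).

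Snhg6 and Snhg8 had the smallest changes. Snhg6, the host of Snord87, was at 44.3, 30.9, 30.4, 41.9 and 29.7 RPKM in wild type and at 64, 58.3, 76.6, 116 and 41.5 RPKM with MYC. MYC replicate 5 lay inside the wild-type range. The log2 change was 0.93 ± 0.214 (limma adjusted p = 0.00358). Snhg8, the host of Snora24, was at 36.9, 27.7, 34.6, 41.9 and 24.7 RPKM in wild type and at 59.1, 56.2, 57.1, 98.4 and 36.3 RPKM with MYC. Here too the other 4 MYC libraries were above every wild-type library and replicate 5 was not. The log2 change was 0.82 ± 0.2 (limma adjusted p = 0.00531).

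**Figure D1:**
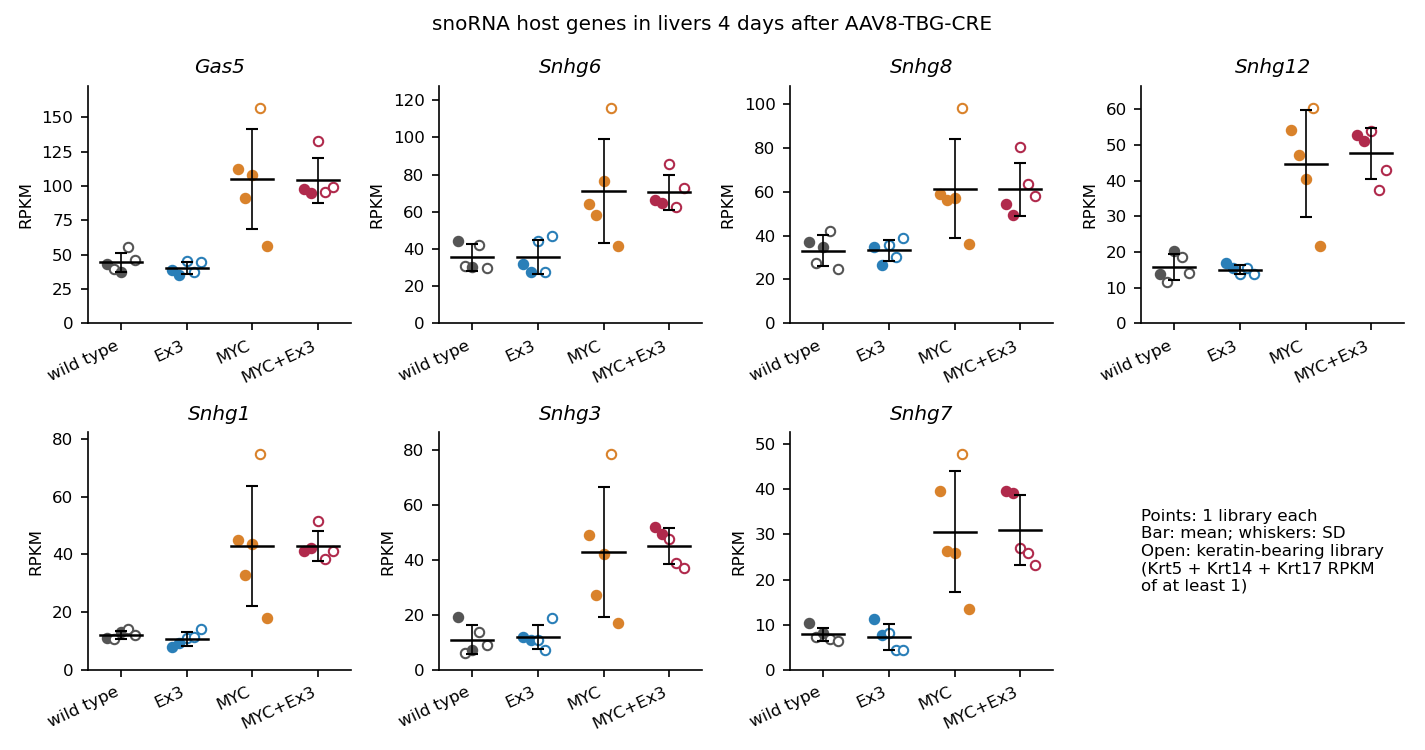
RPKM of each host gene in the 4 groups of AAV livers, 1 point per library with mean and SD, open points for keratin-bearing libraries. Wild-type and Ex3 livers lie together in every panel, and MYC and MYC+Ex3 livers lie higher, with MYC replicate 4 (open) at the top of the MYC group and replicate 5 at the bottom.

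The MYC and wild-type groups did not overlap for 4 of 7 host genes (Gas5, Snhg1, Snhg7 and Snhg12), against 10.9% of all genes. The call came with a fitted fold of at least 2 for 5 of 7, against 5.8% of all genes. The median log2 change of the 7 genes was 1.40, against 0.07 over all genes tested. Proliferation genes moved in the same comparison, where 16.9% of all genes were called higher. All 18 genes of a proliferation list, Mki67 among them, were called higher in MYC livers, with a median log2 change of 3.04. Their part in the host gene result was not tested. The libraries were total liver RNA, in which more cells of a type and more RNA per cell cannot be told apart.

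MYC replicate 4 was the highest of its group for 7 of 7 host genes and replicate 5 the lowest for 7 of 7. Ncl followed the same order at its ends, at 98.3 RPKM in replicate 4 and 41.2 in replicate 5, while Mki67 was lowest in replicate 5 (26.7 RPKM) but not highest in replicate 4 (58). Without replicate 4, all 7 genes were still called and the log2 changes ran from 0.64 (Snhg8) to 1.56 (Snhg7). In the keratin-free libraries alone, 4 MYC against 2 wild-type livers, 4 of 7 host genes were called higher, where 7.09% of all genes were. The calls of Snhg3 (log2 change 1.34, limma adjusted p = 0.0737), Snhg6 (0.66, limma adjusted p = 0.0949) and Snhg8 (0.51, limma adjusted p = 0.143) were lost there. With a term for the keratin-bearing libraries all 7 were called. For that fit and for the fit without replicate 4, the share of all genes called is not given here.

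In MYC+Ex3 livers the host genes stood at nearly the same levels as with MYC alone, and for each of the 7 the SD was smaller than in MYC livers, a difference that was not tested. Gas5 was at 97.8, 94.8, 133, 95.5 and 99.3 RPKM, and all 5 libraries were above the highest wild-type liver. Snhg1 was at 41.3, 42.3, 51.7, 38.3 and 41 RPKM, an SD of 5.12 against 20.8 in MYC livers. Snhg3 was at 51.9, 49.4, 47.6, 39.1 and 37.1 RPKM, with 78 to 158 reads per library. All 7 genes were called higher than in wild type (17.9% of all genes were), and for 7 of 7 the groups did not overlap (13.5% of all genes). Of the 7, 5 were called at least 2-fold higher (6.41% of all genes). The log2 changes ran from 0.86 ± 0.2 for Snhg8 to 2.04 ± 0.33 for Snhg3, with limma adjusted p from 1.31e-05 to 0.00329 and a median of 1.56, against 0.05 over all genes.

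The same comparison held within keratin-bearing libraries, where 7 of 7 genes were called (15% of all genes were higher). In keratin-free libraries, 2 against 2, 6 of 7 were called (14.1% of all genes). There Snhg8 had a log2 change of 0.52 (limma adjusted p = 0.127), against 1.09 in the keratin-bearing libraries. Against Ex3 livers, which share the Ex3 allele with the MYC+Ex3 livers, 7 of 7 were called higher (16.4% of all genes), with log2 changes from 0.85 ± 0.2 (Snhg8) to 1.99 ± 0.277 (Snhg7). No member's groups overlapped (15.2% of all genes had none), and 5 of 7 were called at least 2-fold higher (5.71% of all genes). This comparison shares its MYC+Ex3 libraries with the one against wild type.

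The Ex3 allele alone gave no called change in the host genes. Gas5 was at 39, 35.5, 45.3, 37.7 and 44.7 RPKM in Ex3 livers, within or just below the wild-type values. Snhg7 was at 11.3, 7.8, 8.19, 4.46 and 4.46 RPKM, from 14 to 45 reads per library, a wider spread than in wild type. Across the 7 genes the log2 changes ran from -0.18 (Snhg1) to 0.16 (Snhg3), and 0 of 7 were called by limma or passed an unadjusted p of 0.05. Of all 13688 genes 0.132% were called in either direction, so few calls were made in this comparison at all. The 95% CI of the fitted fold was 0.701 to 1.2 for Gas5 and 0.726 to 1.32 for Snhg12. It was wider for the genes with few reads, at 0.693 to 1.8 for Snhg3 and 0.602 to 1.34 for Snhg7. In the authors' deposited table, which rests on the same libraries, 0 of 7 were called in this comparison too, with log2 fold changes from -0.15 to 0.05.

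Adding Ex3 to MYC moved no host gene past the test. Between MYC+Ex3 and MYC livers the log2 changes were 0.04 (Snhg8) to 0.23 (Snhg3), and 0 of 7 genes were called by limma or passed an unadjusted p of 0.05 (0.19% of all genes were called). The 95% CI of the fitted fold was 0.792 to 1.36 for Gas5 and 0.73 to 1.89 for Snhg3. The interaction of the alleles, which asks whether the change with MYC differs when Ex3 is present, had log2 estimates of 0.03 (Snhg8) to 0.31 (Snhg1). Again 0 of 7 were called or passed an unadjusted p of 0.05, where 0% of all genes were called. The interval for Snhg1 ran from -0.40 to 1.02 on the log2 scale, and those of Snhg3 (-0.90 to 1.05) and Snhg7 (-0.56 to 1.07) also reach past 1, so a 2-fold difference lies within the intervals of these 3 genes. In keratin-free libraries the estimates were larger for some genes, with 0 of 7 called. Between MYC+Ex3 and MYC livers they were 0.67 for Snhg3, 0.66 for Snhg7, 0.41 for Snhg12 and 0.33 for Snhg1 there, and the interaction ran from 0.22 (Gas5) to 0.78 (Snhg1).

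The tumour arm showed the same genes high in MYC tumours. Gas5 was at 6.81 RPKM in the lowest, 10.4 in the median and 12.9 in the highest of the 7 wild-type 4-OHT livers, and at 24.2, 20.2 and 23.9 RPKM in the 3 MYC tumours. The tumours were clear of the livers. Its log2 change was 1.22 ± 0.176 (limma adjusted p = 9.12e-05). Snhg1 was at 1.84, 3.03 and 3.65 RPKM in the lowest, median and highest 4-OHT liver and at 11, 10.2 and 13.1 RPKM in the MYC tumours. These values rest on 174 to 346 reads per liver and 775 to 1434 per MYC tumour. The log2 change was 1.76 ± 0.147 (limma adjusted p = 1.24e-06).

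Snhg7 had the highest estimate of the tumour arm, where Snhg3 had it in the AAV livers. It was at 2.03, 2.97 and 4.41 RPKM in the lowest, median and highest 4-OHT liver and at 19.1, 11.3 and 13.7 RPKM in the MYC tumours. The log2 change was 1.94 ± 0.176 (limma adjusted p = 2.46e-06), a fitted fold of 3.84. Snhg3 was at 2.57, 4.07 and 5.5 RPKM in those livers and at 20.2, 13.1 and 14.4 RPKM in the MYC tumours. Unlike in the AAV livers, no library of the 2 groups overlapped. Its log2 change was 1.71 ± 0.17 (limma adjusted p = 4.84e-06).

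Snhg12 was at 2.75, 4.18 and 5.3 RPKM in the lowest, median and highest 4-OHT liver and at 12.8, 10.1 and 14 RPKM in the MYC tumours. Snhg6 was at 4.44, 6.31 and 8.17 RPKM in those livers and at 22.9, 14 and 17.2 RPKM in the MYC tumours. Snhg8 was at 3.6, 6.45 and 7.37 RPKM and at 17.9, 10.3 and 14.8 RPKM, in the same order. For each of these 3 genes the lowest tumour, replicate 2, was still above the highest liver. Their log2 changes were 1.45 ± 0.16 for Snhg12, 1.35 ± 0.18 for Snhg6 and 1.15 ± 0.19 for Snhg8, with limma adjusted p of 1.21e-05, 5.12e-05 and 0.000266.

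**Figure D2:**
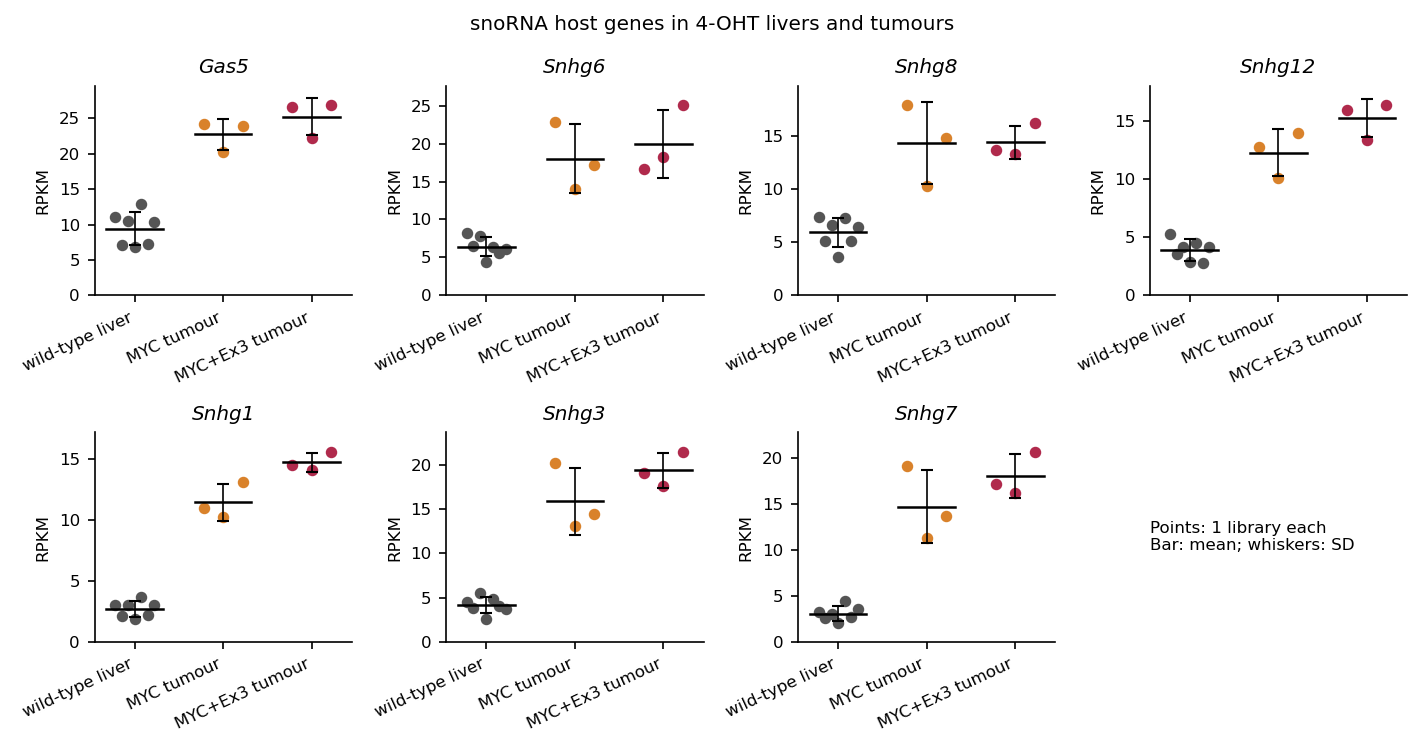
RPKM of each host gene in wild-type 4-OHT livers (7 libraries), MYC tumours (3) and MYC+Ex3 tumours (3), 1 point per library with mean and SD. No tumour overlaps with the livers in any of the 7 panels.

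In MYC tumours 7 of 7 host genes were called higher (36.2% of the 11854 genes tested were), and for 7 of 7 the groups did not overlap (26.3% of all genes). Their median log2 change was 1.45, against 0.19 over all genes. In MYC+Ex3 tumours 7 of 7 were called higher as well (42.3% of all genes), again with no overlap for 7 of 7 (38.2% of all genes). There the log2 changes ran from 1.18 ± 0.19 (Snhg8) to 2.24 ± 0.176 (Snhg7), with a median of 1.75 against 0.23 over all genes. Calls were common over all genes here, while 8.18% and 13% of all genes were called at least 2-fold higher in MYC and MYC+Ex3 tumours and 7 of 7 hosts were in both. The 18 proliferation genes were all called higher in MYC tumours too, with a median log2 change of 1.59. After each library was scaled by its median ratio to the others, which takes out the shift over all genes, the log2 changes of the hosts were 0.95 to 1.75 and 0.97 to 2.04 and all 7 remained called in both. Of the 11855 genes in the rescaled fit, 3195 were called higher in MYC tumours and 3996 in MYC+Ex3 tumours. Among the genes called in either direction, rescaling lowered the share called higher from 72.6% to 53.4% in MYC tumours. In MYC+Ex3 tumours that share fell from 69.7% to 55.2%. In the AAV livers rescaling lowered that share of the called genes from 75.9% to 59.1% for MYC against wild type. It fell from 74.4% to 61.2% for MYC+Ex3 against wild type, and from 77.7% to 67% for MYC+Ex3 against Ex3.

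Between the tumour types no host gene passed the test. Snhg1 had the largest estimate, at 14.5, 14.1 and 15.6 RPKM in MYC+Ex3 tumours, all 3 above the highest MYC tumour. Its log2 change from MYC tumours was 0.35 ± 0.174, with a 95% CI of -0.02 to 0.72 and a limma adjusted p of 0.323. Snhg8 had the smallest, 0.03 ± 0.225, at 13.7, 13.3 and 16.2 RPKM. In all 0 of 7 were called by limma, and 0 passed an unadjusted p of 0.05, where 4.13% of all genes were called in either direction. By RPKM, MYC tumour replicate 2 was the lowest of its group for 7 of 7 genes and MYC+Ex3 tumour replicate 3 the highest for 7 of 7. This order depends on the library size behind the RPKM, which in this arm did not follow the reads in genes. Gas5 had 2469 reads of 9.3 M in MYC+Ex3 tumour replicate 1 (26.6 RPKM) and 2123 of 9.14 M in replicate 3 (26.9 RPKM).

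Cell type markers moved with the tumour comparison. Of the 11854 genes tested there, 1621 were called lower in MYC tumours and 2178 in MYC+Ex3 tumours. The 6 macrophage markers in the table summed to 92.1 to 123 RPKM in 4-OHT livers, 14.5 to 90.4 in MYC tumours and 35 to 43.1 in MYC+Ex3 tumours, with none at 0, and 6 of 6 and 5 of 6 were called lower in the 2 tumour types. The 6 endothelial markers summed to 40.5 to 68.1 RPKM in the livers, 23.3 to 37.3 in MYC tumours and 25 to 29.7 in MYC+Ex3 tumours, with 4 of 6 called lower in each. Of the 6 stellate and fibroblast markers 3 were called lower and 2 higher in MYC tumours, and 4 lower and 1 higher in MYC+Ex3 tumours. Of 4 lymphocyte markers tested 0 were called in MYC and 3 were lower in MYC+Ex3 tumours, and of 7 hepatocyte markers 1 was lower in MYC and 3 in MYC+Ex3 tumours. The 3 erythroid markers were called higher in MYC+Ex3 tumours, where 42.3% of all genes were. The part of these shifts in the host gene result was not tested. In the AAV livers, with MYC against wild type, 0 of 6 macrophage markers and 1 of 6 endothelial markers (lower) were called by limma. Of 7 hepatocyte markers 1 was lower there, of 6 stellate and fibroblast markers 1 was higher and 1 lower, and 0 of 6 lymphocyte markers were called. Over all 13688 genes tested, 734 were called lower in that comparison.

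**Figure D3:**
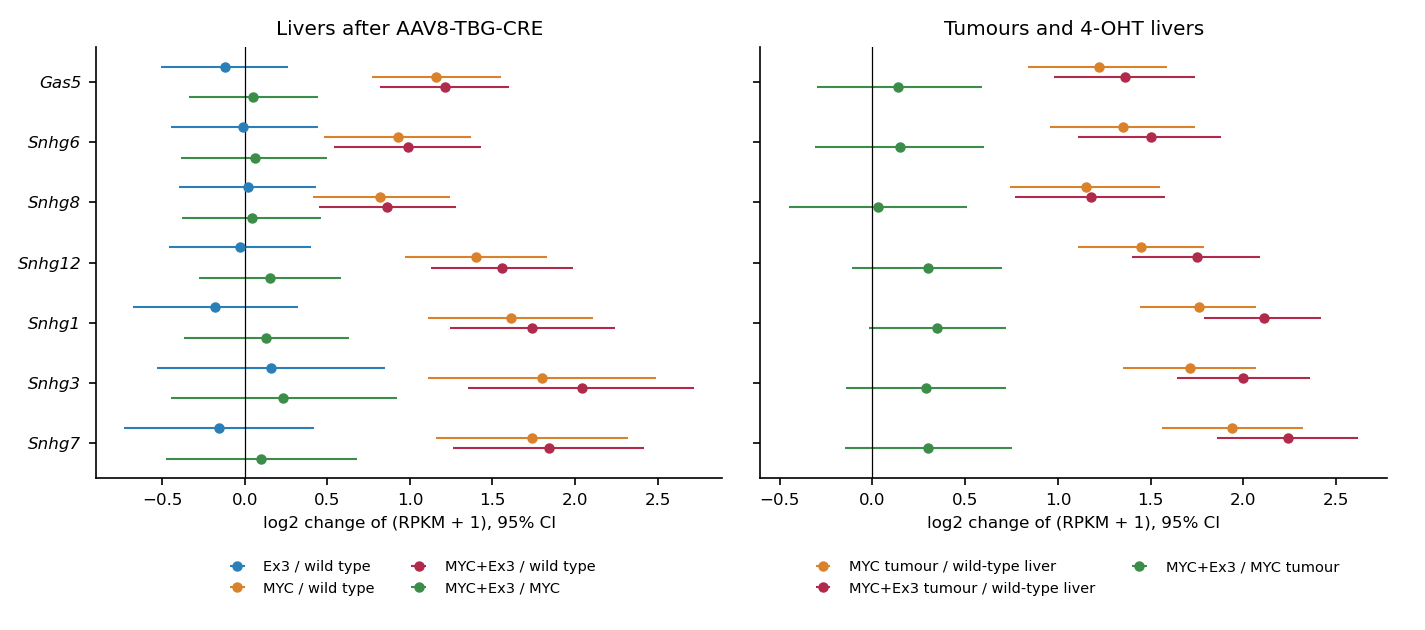
Log2 change of each host gene with its 95% CI, for the AAV livers (left) and the tumour arm (right), on the log2(RPKM + 1) scale. Comparisons of MYC against no MYC lie right of 0 for all 7 genes, from 0.82 to 2.24, and the intervals of Ex3 against wild type and of MYC+Ex3 against MYC cross 0.

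The highest and the lowest host gene were closer in level where MYC was active. In each library the highest of the 7 genes was divided by the lowest. This fold was 4.31 to 8.02 (median 6.44) in wild-type AAV livers, 4.56 to 10.5 in Ex3 livers, 2.81 to 4.19 (median 3.44) in MYC livers and 2.42 to 4.92 in MYC+Ex3 livers. In the tumour arm it was 3.26 to 3.69 in 4-OHT livers, 1.82 to 2.21 in MYC tumours and 1.68 to 1.94 in MYC+Ex3 tumours. The ranges of MYC and wild type did not overlap in either arm, while that of MYC+Ex3 livers overlapped with wild type. These folds were not tested, and few reads in a low gene can widen them. A limit on the values of abundant genes would narrow them. The highest RPKM of any gene in a library was only 220 to 396 in AAV livers and 42.9 to 67.5 in the tumour arm. The part of such a limit was not tested.

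Ratios to Snhg8 differed from pair to pair. Snhg7 was at 0.241 ± 0.0446 of the level of Snhg8 in wild-type AAV livers (SD, n = 5) and at 0.49 ± 0.111 in MYC livers, where the highest wild-type library (0.278) was below the lowest MYC library (0.371). The 7 livers of the tumour arm had a ratio of 0.521 ± 0.0643, the 3 MYC tumours 1.03 ± 0.0919 and the 3 MYC+Ex3 tumours 1.25 ± 0.033. Snhg1 to Snhg8 went from 0.376 ± 0.0689 in wild-type to 0.674 ± 0.125 in MYC livers. Snhg6 to Snhg8 was 1.08 ± 0.14 in wild-type and 1.16 ± 0.117 in MYC livers, so these 2 abundant hosts kept their ratio within the spread. Gas5 to Snhg8 went from 1.37 ± 0.306 in wild-type to 1.71 ± 0.163 in MYC livers, with overlapping ranges (1.08 to 1.86 and 1.56 to 1.89). It went from 1.22 ± 0.0924 in Ex3 to 1.72 ± 0.158 in MYC+Ex3 livers, without overlap. In the tumour arm this ratio stayed within the spread, at 1.6 ± 0.181 in 4-OHT livers, 1.64 ± 0.305 in MYC tumours and 1.76 ± 0.153 in MYC+Ex3 tumours. None of these ratios was tested. Snhg8 was below Snhg3 and Snhg7 in the mean of MYC+Ex3 tumours, though above both in 4-OHT livers.

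RefSeq places 26 snoRNAs inside the span of the 7 host genes, and 8 of them had a row in the table. Snord22 in Snhg1 and Snord99 in Snhg12 had 0 reads in all 33 libraries. Reads on a snoRNA row cannot be told apart from those of the unspliced host. Snora16a, in an intron of Snhg12, was at 16.7 ± 7.32 RPKM in wild-type AAV livers and 49.1 ± 21.4 in MYC livers (n = 5 each), from 5 to 53 reads per library. Its log2 change was 1.52 ± 0.279 (limma adjusted p = 0.000533). Snora61 of the same host went from 40.3 ± 24.2 to 95.4 ± 51.8 RPKM (log2 change 1.30 ± 0.389, limma adjusted p = 0.021), while the third, Snora44, did not pass the test (0.57 ± 0.349, limma adjusted p = 0.256).

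Snora43, in Snhg7, had a log2 change of 1.65 ± 0.267 (limma adjusted p = 0.000152), but its row has an implied length of 1476 bases, far longer than a snoRNA. Snord87 of Snhg6 (2 to 20 reads across these libraries) had a log2 change of 0.58 ± 0.424 (limma adjusted p = 0.356), and Snord47 of Gas5 0.85 ± 0.371 (limma adjusted p = 0.107). In MYC tumours all 6 detected hosted snoRNA rows were called higher, where 36.2% of all genes were. Snora16a, Snora44 and Snora61 share the host Snhg12, so these rows are not independent. The changes there ran from 0.82 ± 0.293 for Snora44 to 1.92 ± 0.164 for Snora43, with Snord87 and Snord47 both at 1.53. Against 4-OHT livers the MYC+Ex3 tumours likewise had 6 of 6 called (42.3% of all genes were), from 1.07 (Snora44) to 2.28 (Snora43).

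Over every snoRNA row of the table, 92 of 107 were tested in the AAV livers, and 34 were called higher and 0 lower with MYC, where 16.9% of all genes were called higher. The median log2 change was 0.72, against 0.07 over all genes. Snord11 (log2 change 2.85, limma adjusted p = 0.00224) and Snord42b (2.84, limma adjusted p = 0.00113) rose most. In MYC tumours 89 were tested, of which 64 were called higher and 0 lower, with a median of 1.19, where 36.2% of all genes were called higher with a median of 0.19. Snord110 (2.61, limma adjusted p = 3.42e-06) and Snord57 (2.47, limma adjusted p = 0.000157) rose most there. Neighbouring snoRNAs that share a host are not independent rows.

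The other genes listed as snoRNA hosts did not move as one. Of 8 further noncoding genes in the table that were listed as hosts, 7 were tested. In MYC livers 2 were called higher, where 16.9% of all genes were. These were Dancr, from 5.83 to 22.9 RPKM (log2 change 1.67 ± 0.264, limma adjusted p = 0.000118), and Snhg9, from 6.07 to 14 RPKM (1.14 ± 0.275, limma adjusted p = 0.00507). Snhg10 (0.80 ± 0.369, limma adjusted p = 0.128) and Snhg14 (0.65 ± 0.312, limma adjusted p = 0.141) did not pass. In MYC tumours 6 of 7 were called higher, where 36.2% of all genes were; Meg3 was tested there and Snhg11 was not, the reverse of the AAV livers. Dancr had 1.47 ± 0.181. The list also held Rnu12 and Meg3, and whether these host a snoRNA was not checked. Rnu12 was not called in MYC livers (0.14 ± 0.207) or MYC tumours (0.38 ± 0.225), and Meg3 was called higher in MYC tumours (1.01 ± 0.283). Rian, an imprinted host of many snoRNAs, had 1.72 ± 0.411, but its MYC tumours ran from 0.26 to 7.07 RPKM and 1 of the 3 lay within the 4-OHT liver range of 0.203 to 0.408. The 4 long noncoding RNAs that host no snoRNA gave 1 call in MYC livers: Mir17hg, the precursor of the miR-17-92 cluster and a known MYC target, was higher by 2.05 ± 0.33 (limma adjusted p = 0.00014). Malat1 and Neat1, abundant nuclear RNAs, had log2 changes of -0.23 and -0.20 in MYC livers and did not pass. Malat1, at 190 to 281 RPKM in wild-type AAV livers, was near the highest value of any gene per AAV liver (220 to 396 RPKM). A rise of such a gene could go unseen, so it is a weak comparison for the hosts. In MYC tumours Neat1 fell by 0.48 (limma adjusted p = 0.0129).

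Among protein-coding genes that carry snoRNAs in their introns, 15 of 29 were called higher and 0 lower in MYC livers, where 16.9% of all genes were called higher. Their median log2 change was 0.34, against 0.07 over all genes. Nop56 (2.03 ± 0.163, limma adjusted p = 3.52e-07) and Dkc1 (1.74 ± 0.166, limma adjusted p = 1.31e-06), which encode snoRNP proteins themselves, had the largest rises. In MYC tumours 18 of 28 were called higher and 0 lower, where 36.2% of all genes were called higher (median 0.47, against 0.19 over all genes), led by Taf1d, a subunit of an RNA polymerase I factor (1.81 ± 0.148), and Dkc1 (1.71 ± 0.137).

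Transcripts that encode snoRNA-binding proteins were called higher along with the hosts, while the proteins themselves were not measured. In MYC livers 16.9% of all genes were called higher. All 4 genes in the table for core proteins of box C/D particles were called there, with Nop56 as above and Nop58 at 1.57 ± 0.202. Fbl, the methyltransferase fibrillarin, went from 14.2 to 40.8 RPKM (1.46 ± 0.145, limma adjusted p = 2.05e-06), and Nhp2l1 changed by 0.69 ± 0.153. The 4 genes for core proteins of box H/ACA particles were all called too: Dkc1, the pseudouridine synthase dyskerin, Nhp2 (1.60 ± 0.164), Gar1 (1.44 ± 0.185) and Nop10 (0.45 ± 0.154). Nop56, Nop58 and Dkc1 are counted both as hosts and as snoRNP proteins. Of 12 genes for snoRNP assembly 9 were called higher, led by Nolc1 (1.72 ± 0.228), a nucleolar chaperone of snoRNPs, and Ruvbl2 (1.68 ± 0.263), an ATPase of the assembly complex. In MYC tumours these counts were 4 of 4, 4 of 4 and 11 of 12, with 0 lower, where 36.2% of all genes were called higher.

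Genes of nonsense-mediated decay, the pathway that degrades several of these host transcripts, are read against the share of all genes called higher, 16.9% in MYC livers and 36.2% in MYC tumours. In MYC livers 1 of 10 was called, near that share. This was Smg5, from 21.4 to 30.1 RPKM (log2 change 0.48 ± 0.155, limma adjusted p = 0.0299). Upf1, the central helicase, had 0.30 ± 0.299 (limma adjusted p = 0.521). In MYC tumours 7 of 10 were called higher, with Upf3b (0.79 ± 0.111) and Upf2 (0.72 ± 0.099) leading, and Upf1 at 0.08 ± 0.159 did not pass. The list had a median of 0.43 in MYC tumours against 0.19 over all genes.

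In Ex3 against wild-type livers 0 genes of any of these lists were called, where 0.132% of all genes were called in either direction. With so few calls at all, this count says little about the lists. The proliferation list had a median log2 change of 0.89 there, from 0.09 to 1.74, against 0.01 over all genes. Medians of the remaining lists ran from -0.05 (snoRNP assembly) to 0.36 (further noncoding genes listed as hosts).

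**Figure D4:**
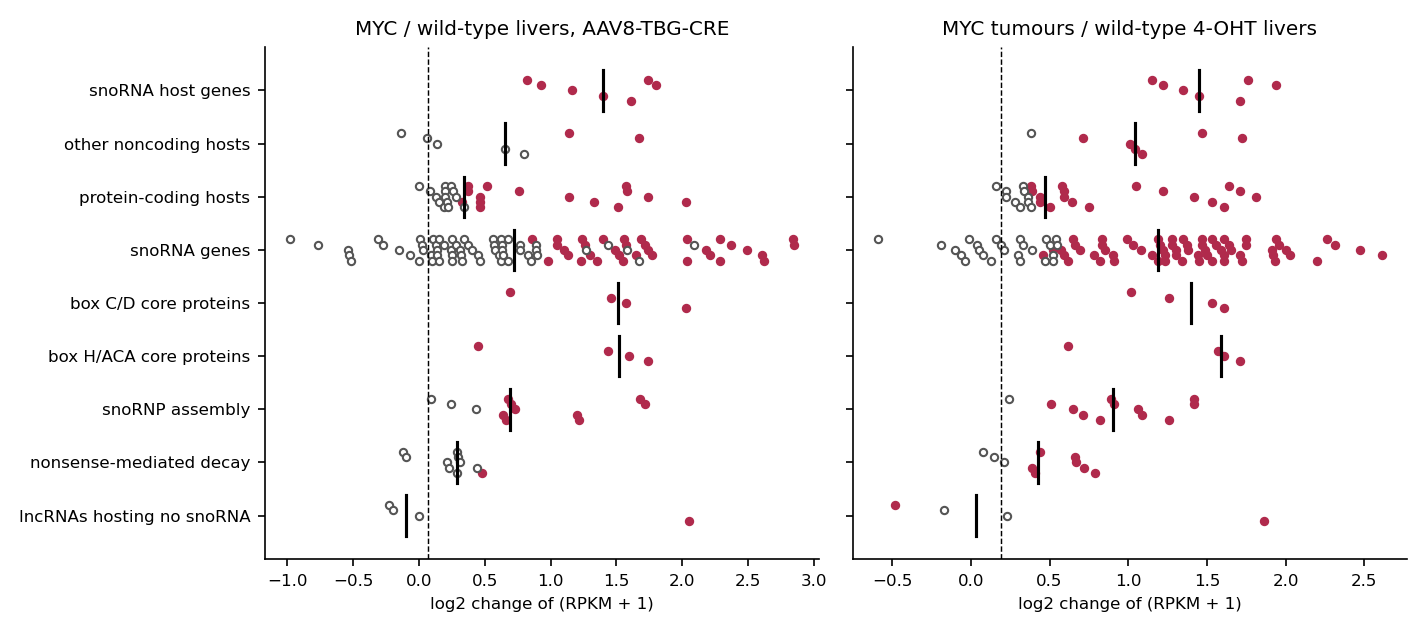
Log2 change of each tested gene by list, for MYC against wild-type AAV livers (left) and MYC tumours against 4-OHT livers (right); filled points passed the test, bars are list medians and the dashed line is the median of all genes. The 7 snoRNA host genes have medians of 1.40 and 1.45, and nonsense-mediated decay genes of 0.29 and 0.43.

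Of the genes next to a host, some were called and others were not. Rcc1, which lies next to Snhg3 and encodes the exchange factor of the GTPase Ran, went from 5.56 to 19.6 RPKM in MYC livers (log2 change 1.60 ± 0.238, limma adjusted p = 6.31e-05). It changed by 1.36 ± 0.179 in MYC tumours. Phactr4, on the other side of Snhg3, had -0.19 (limma adjusted p = 0.61). Wdr74, beside Snhg1, rose by 0.94 ± 0.138 in MYC livers (limma adjusted p = 5.49e-05) and Slc3a2 on the other side by 0.46 ± 0.133 (limma adjusted p = 0.0175). Trnau1ap, next to Snhg12, rose by 0.66 ± 0.146 (limma adjusted p = 0.00259). Zbtb37, which overlaps Gas5, had -0.01 (limma adjusted p = 0.986). The libraries were stranded per the labels' protocols but the strand setting of the counting is not given in the sources used here, so reads of Gas5 and Zbtb37, and of Snhg6 and the overlapping Mcmdc2, may not be fully separated.

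The genes whose profile was most like that of the hosts were found by the Pearson correlation of log2(RPKM + 1) with the mean of the 7 standardised host genes, a description over libraries that share their groups and depth. Across the 20 AAV livers and 9114 genes these were Rps12 (r = 0.988), Rps24 (0.985), Taf1d (0.984), Rpp38 (0.983) and Pa2g4 (0.979). Rps12 and Taf1d are themselves snoRNA hosts of the list above, and Rps24 encodes a ribosomal protein. Across the 13 libraries of the tumour arm and 5250 genes they were Rae1 (0.995), Wdr12 (0.994), Fam185a (0.993), Nop56 (0.993) and Tfdp1 (0.993).

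The calls in the authors' deposited table were the same for the host genes. For MYC against wild-type livers the authors' deposited table called all 7, with log2 fold changes from 0.73 to 1.63. For MYC and MYC+Ex3 tumours the authors' deposited table called all 7, with log2 fold changes of 1.04 to 1.99 and 1.06 to 2.31. For MYC+Ex3 against MYC the authors' deposited table called 0 of 7 in either arm.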

How the data were processed

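Total RNA of 33 libraries was sequenced from strand-specific TruSeq libraries, per the labels' protocols. The submitters' processing notes name TopHat2 2.0.8, SAMtools, featureCounts 1.4.5-p1, DESeq2 and mm9. The authors deposited RPKM per gene and library, and beside it their own log2 fold changes and adjusted p-values. No column belonged to another series (0 columns). Within a gene all RPKM were whole multiples of 1 read (tolerance 0.01) for 20485 of 20485 genes with a value, which gave the reads per library. The other 1186 genes were at 0.

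The main test was limma 3.58.1 (R 4.3.3) applied to log2(RPKM + 1), with trended empirical Bayes moderation and two-sided tests and Benjamini-Hochberg adjustment over all genes and a threshold of 0.05. Genes with an RPKM of at least 1 in at least 3 libraries were tested, 13688 in a fit of the 20 AAV livers and 11854 in a fit of the 13 other libraries. A log2 change is of RPKM + 1, which understates low genes, and a fitted fold is its antilog. In simulated data of 13485 and 11505 genes, with 200 changed, 72% of 2-fold and 100% of 3-fold changes were recovered for MYC against wild type in the AAV livers, and 81% and 100% for MYC tumours. The simulated spread was set alike for all genes, and the changed genes had a mean RPKM of at least 5. Host genes spread more widely in the MYC livers, such as Snhg1 at 42.9 ± 20.8 RPKM (SD). The recovered shares may therefore be too high for them. The members and lists were chosen with earlier results of these data known. Of each list the text names, for MYC in each arm, the called genes that changed most, 2 upward and 2 downward; further members were named after their values were seen. Genes like the hosts had a mean RPKM of at least 5, and predicted genes, clones, small RNAs and pseudogenes were left out. Neighbours and snoRNA positions were taken from RefSeq (GRCm38.p6) by name.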

Additional observations from a re-analysis of the deposited data

Results flagged for a closer look

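Gas5 in MYC+Ex3 AAV livers had 1 library apart from the other 4: replicate 3 was at 133 RPKM, and its gap to the next library was a large part of the range of the group. This was the only case among 35 groups of member values that were looked at, and chance alone sets apart about 1 group in 20 by this measure. Replicate 3 is a keratin-bearing library; without it the log2 change of Gas5 against wild type was 1.12, and the gene was still called.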

How the results depend on the processing

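The alternatives were a pseudocount of 0.1, no filter, a filter at 5 RPKM, rescaling by the median ratio, fits limited to the groups being compared, a term for keratin-bearing libraries, only keratin-free libraries, only S14 or only S15 4-OHT livers, and 33 fits that each left out 1 library; fits of only keratin-bearing libraries were chosen after seeing the data. In the comparisons of MYC against none, 857 of 861 values of single genes kept their direction and call, and 0 changed direction. The count of called genes moved by over 1.5 times once, to 4 of 7 for MYC against wild type in keratin-free libraries, where fewer libraries and genes entered the fit. In the comparisons where no host gene was called, some estimates near 0 changed sign, others grew in keratin-free libraries (to 0.67 for Snhg3 and 0.66 for Snhg7 in MYC+Ex3 against MYC, and 0.78 for Snhg1 and 0.72 for Snhg3 in the interaction), and none became a call. With the keratin term, MYC+Ex3 against MYC was -0.07 for Gas5, -0.01 for Snhg1, -0.06 for Snhg6 and -0.06 for Snhg8, and the interaction was -0.05 for Snhg6 and -0.08 for Snhg8. Ex3 against wild type was 0.01 for Snhg1 and 0.19 for Snhg6 in keratin-bearing libraries, -0.05 for Snhg3, 0.03 for Snhg7 and -0.22 for Snhg8 in keratin-free libraries, and 0.00 for Snhg8 after rescaling; the cause was not tested. Leaving out 1 library gave ranges that crossed 0. For Ex3 against wild type these were -0.13 to 0.06 (Snhg12), -0.01 to 0.37 (Snhg3), -0.11 to 0.08 (Snhg6) and -0.08 to 0.10 (Snhg8). For MYC+Ex3 against MYC they were -0.15 to 0.22 (Gas5), -0.14 to 0.36 (Snhg1), -0.04 to 0.49 (Snhg3), -0.11 to 0.25 (Snhg6), -0.15 to 0.28 (Snhg7), -0.13 to 0.23 (Snhg8) and -0.08 to 0.28 (Snhg12). For the interaction they were -0.02 to 0.34 (Gas5), -0.20 to 0.33 (Snhg3), -0.11 to 0.26 (Snhg6), -0.14 to 0.21 (Snhg8) and -0.05 to 0.31 (Snhg12). Between tumour types they were -0.02 to 0.32 (Snhg6) and -0.17 to 0.20 (Snhg8). No paired analysis was possible because the replicate numbers were given in accession order and tie no animals together.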
